A study of Mus with 6 samples.

Results

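The cytosolic heat shock genes described here are 8 of the 35304 gene IDs in a count table of the mouse mammary carcinoma line 4T1 with and without isopimaric acid (IPA). They were chosen by name, with earlier results of these data known: the stress-inducible Hsp70 genes Hspa1a (ENSMUSG00000091971) and Hspa1b (ENSMUSG00000090877), the constitutive Hsp70 gene Hspa8 (ENSMUSG00000015656), the Hsp90 genes Hsp90aa1 (ENSMUSG00000021270) and Hsp90ab1 (ENSMUSG00000023944), the small heat shock protein gene Hspb1 (ENSMUSG00000004951), the J-domain cochaperone gene Dnajb1 (ENSMUSG00000005483) and the Hsp110 gene Hsph1 (ENSMUSG00000029657). All 8 passed the filter on low counts. The study comprised 3 untreated samples, for which the labels name no vehicle, and 3 samples given 10 µg/mL IPA, a diterpene acid of conifer resin, for 24 h. All were grown with fetal bovine serum. The labels do not say whether replicates were separate cultures, and the spread that the p-values rest on may thus be technical.

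Cytosolic heat shock proteins are chaperones that bind unfolded or immature proteins. Hsp70 works in a cycle of ATP binding and hydrolysis in which J-domain proteins deliver clients and Hsp110 proteins exchange the nucleotide, and Hsp90 takes over part of these clients, among them many kinases and steroid receptors. When unfolded protein accumulates in the cytosol, the transcription factor HSF1 is released and raises the inducible members, with Hspa1a, Hspa1b, Dnajb1, Hsph1 and Hsp90aa1 among its best known targets. Hspa8 and Hsp90ab1 are abundant in unstressed cells, and tumour cells often keep chaperone levels high.

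Library totals ran from 3410411 to 58924711 counts, and IPA replicate 1 was the shallowest. Over all genes, 1 library, untreated replicate 2, was unlike the remaining 5: the first principal component, with 66% of the variance in log2 CPM (counts per 1000000 counts of the library), placed it at 272 and the others between -68.6 and -44.1. The fitted changes and the differences in ratios are therefore given with and without it. The identity of the cells was not checked against markers of mammary epithelium or of other cell types, since only the 8 heat shock IDs could be tied to names. No p-value below is adjusted over the 8 genes alone.

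No heat shock gene passed the test between treated and untreated cells. Over all 6 libraries edgeR's quasi-likelihood test called 0 of the 8 at an adjusted p under 0.05, beside 0% of all 24935 IDs tested. None of the 8 had an unadjusted p under 0.05, against 6.26% of all IDs. Without untreated replicate 2 the same test again called 0 of the 8, although it called 3.46% of 25592 IDs, and 2 of the 8, Hsph1 and Hspa8, had an unadjusted p under 0.05, against 16.8% of all IDs. DESeq2 called 0 of the 7 to which it gave an adjusted p, all but Hspb1. At an unadjusted p under 0.05 it had 1 of the 8 over all 6 libraries, against 9.93% of the IDs to which it gave a p. Without untreated replicate 2 it had 2 of the 8, against 14.6% of such IDs. Limma-voom called 0 of the 8, with 0 at an unadjusted p under 0.05 over all 6 libraries, against 6.22% of all IDs, and 2 without untreated replicate 2, against 20.9%. The median log2 fold change of the 8 was 0.30 over all 6 libraries, where that of all IDs was -0.08, and 0.22 against -0.04 without untreated replicate 2. In both comparisons 5 of the 8 had a positive value, namely Hspa1a, Hspa1b, Hspb1, Dnajb1 and Hsph1, and 3 a negative one. In bulk RNA a change in the number of cells that express a gene and a change in RNA per cell cannot be told apart.

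Together the 8 genes took a near-constant part of the raw counts of each library. Their share of all counts was 0.299%, 0.315% and 0.317% in untreated replicates 1, 2 and 3, and 0.316%, 0.319% and 0.3% in IPA replicates 1, 2 and 3. The groups overlapped. Untreated replicate 2 lay within this narrow range even though its counts were divided among the 8 genes in another way. It had the most Hsp90ab1, at 2021 CPM, and the least Hspa8, at 321 CPM. These shares do not include the TMM normalization factors that the fits used. That factor was 0.754 in untreated replicate 2 and from 1.02 to 1.11 in the other libraries, so the near-constancy holds for raw counts only.

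**Figure D1:**
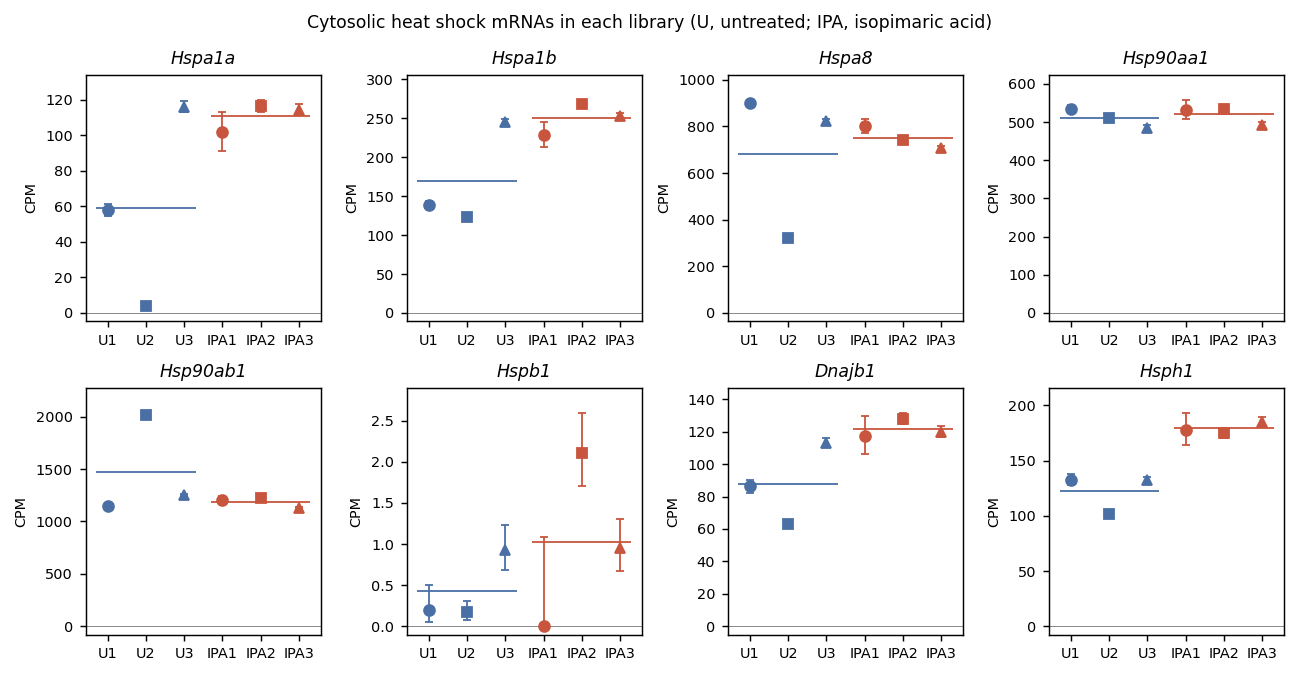
Level of each heat shock mRNA in CPM (vertical axes, each from its own 0) in untreated (U1 to U3, blue) and IPA (IPA1 to IPA3, red) libraries; bars are exact Poisson 95% intervals, which cover counting error only, and horizontal lines are group means. Only Hsph1 and Dnajb1 are separated between the groups, and untreated replicate 2 is far below the rest for Hspa1a and Hspa8 and above them for Hsp90ab1.

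Hspa1a and Hspa1b encode the major stress-inducible Hsp70 and are near-identical copies. On mouse chromosome 17 of GRCm38, Hspa1a spans 34969359 to 34972156 and Hspa1b spans 34956429 to 34959238, 10.1 kb apart with 0 annotated genes between them in RefSeq. Reads that match both could have been counted for either, since the treatment of multiply mapped reads is not given in the sources used here, so the value of each copy is uncertain. Hspa1a stood at 57.9, 3.67 and 116 CPM in untreated replicates 1, 2 and 3, and at 102, 117 and 114 CPM in IPA replicates 1, 2 and 3. Untreated replicate 3 was as high as the treated libraries, and the groups overlapped. The log2 fold change with IPA was 0.81 ± 0.88 (SE) over all 6 libraries, with an edgeR adjusted p of 0.766. Leaving out untreated replicate 2, it was 0.25 ± 0.23, with an adjusted p of 0.685. Leaving out untreated replicate 3 in its place, it was 1.74 ± 0.92 (edgeR adjusted p = 0.502), so both libraries moved the value by more than 1.5 times, in opposite directions. Limma-voom gave 1.76 ± 1.10 over all 6 libraries (adjusted p = 0.585).

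Hspa1b followed Hspa1a in 5 of the 6 libraries. It stood at 138, 124 and 245 CPM in untreated replicates 1, 2 and 3, and at 229, 269 and 253 CPM in IPA replicates 1, 2 and 3. As with Hspa1a, the treated libraries were close to untreated replicate 3 and above untreated replicate 1. The log2 fold change was 0.36 ± 0.26 over all 6 libraries (edgeR adjusted p = 0.676) and 0.28 ± 0.18 without untreated replicate 2 (adjusted p = 0.506). With untreated replicate 3 left out in its place, the value was 0.64 ± 0.26, at an unadjusted p of 0.0432 and an edgeR adjusted p of 0.493.

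The split of counts between the copies set untreated replicate 2 apart more plainly than the sum did. Hspa1a held 29.5% of the counts of the pair in untreated replicate 1 (Wilson 95% interval 28.1% to 30.9%) and 32.1% in untreated replicate 3 (31.5% to 32.8%). In IPA replicates 1, 2 and 3 it held 30.8%, 30.3% and 31.2%. In untreated replicate 2 it held 2.88% (2.52% to 3.28%), with 216 counts for Hspa1a beside 7292 for Hspa1b. These intervals cover counting error only. Added together, the copies reached 196, 127 and 361 CPM in untreated replicates 1, 2 and 3 and 331, 385 and 367 CPM in IPA replicates 1, 2 and 3. Fitted as 1 feature, the pair had a log2 fold change of 0.48 ± 0.32 (edgeR adjusted p = 0.663), and of 0.27 ± 0.19 without untreated replicate 2 (adjusted p = 0.557).

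Hspa8 encodes Hsc70, the constitutive cytosolic Hsp70. It lies on chromosome 9 from 40801276 to 40805202, a span that also holds 3 annotated small nucleolar RNA genes, Snord14c, Snord14d and Snord14e. Its level was 899, 321 and 823 CPM in untreated replicates 1, 2 and 3, and 799.6, 739 and 708 CPM in IPA replicates 1, 2 and 3. The treated libraries all lay below untreated replicates 1 and 3 and above untreated replicate 2, which held the lowest value. Over all 6 libraries the log2 fold change was -0.03 ± 0.31 (edgeR adjusted p = 0.978). In the 5 other libraries it was -0.31 ± 0.14, with an unadjusted p of 0.0364 and an edgeR adjusted p of 0.25. With library totals in place of TMM factors it was -0.20 ± 0.13 there, at an edgeR unadjusted p of 0.151. Groups not overlapping, with the treated ones lower, were found for 13.9% of all IDs in CPM in that comparison of 5 libraries.

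Hsph1 encodes Hsp105, a cytosolic Hsp110 that acts as a nucleotide exchange factor for Hsp70. Its gene spans 149616843 to 149636498 on chromosome 5. The level was 133, 101 and 132 CPM in untreated replicates 1, 2 and 3, and 178, 175 and 185 CPM in IPA replicates 1, 2 and 3. All 3 treated libraries were above all 3 untreated ones, both in CPM and with TMM normalization factors. Such a separation upward was seen for 15.7% of all IDs in CPM and for 9.49% with TMM factors, so it is not rare in this table. The group means were 122 ± 17.9 CPM in untreated and 179 ± 5.34 CPM in treated cells (SD, n = 3 each). The log2 fold change was 0.33 ± 0.18 over all 6 libraries (edgeR adjusted p = 0.657). Without untreated replicate 2 it was 0.33 ± 0.13, with a 95% interval from 0.06 to 0.60, an unadjusted p of 0.0174 and an edgeR adjusted p of 0.172. With TMM factors Hsph1 was thus the member whose value moved least when that library was left out. With library totals it went from 0.55 to 0.44, while Hsp90aa1 moved less, from 0.0251 to 0.0269. The adjusted p of Hsph1 stayed above 0.05 in each of 19 alternatives, the lowest being 0.0532 with library totals and without untreated replicate 2.

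Dnajb1 encodes Hsp40, the J-domain protein that stimulates the ATPase of Hsp70, and lies on chromosome 8 from 83608175 to 83612653. It stood at 86.2, 63.4 and 113 CPM in untreated replicates 1, 2 and 3, and at 117, 128 and 120.0 CPM in IPA replicates 1, 2 and 3. The groups did not overlap in CPM, with IPA replicate 1 just above untreated replicate 3, but they overlapped once TMM factors were applied. As for Hsph1, the background of such separations in CPM was 15.7% of all IDs. The exact Poisson interval of IPA replicate 1, which had 400 counts, ran from 106 to 129 CPM and so included the value of untreated replicate 3. The log2 fold change was 0.27 ± 0.20 over all 6 libraries (edgeR adjusted p = 0.677) and 0.18 ± 0.14 without untreated replicate 2 (adjusted p = 0.578).

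Hsp90aa1 encodes the inducible Hsp90 alpha, on chromosome 12 from 110691036 to 110696395. It was the steadiest of the 8 across the 6 libraries in CPM, at 535, 511 and 485 CPM in untreated replicates 1, 2 and 3 and 533, 535 and 493 CPM in IPA replicates 1, 2 and 3. Group means were 511 ± 24.99 and 520.1 ± 23.5 CPM (SD, n = 3 each), so the difference was smaller than the spread within either group. With TMM factors the log2 fold change was -0.22 ± 0.23 (edgeR adjusted p = 0.755), and -0.08 ± 0.13 without untreated replicate 2 (adjusted p = 0.849). With library totals in place of TMM its sign turned, to 0.03 in both comparisons.

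Hsp90ab1 encodes the constitutive Hsp90 beta, on chromosome 17 from 45567778 to 45573261. It stood at 1143, 2021 and 1253 CPM in untreated replicates 1, 2 and 3, and at 1202, 1225 and 1127 CPM in IPA replicates 1, 2 and 3. Untreated replicate 2 was the highest and the other 5 libraries lay close together, with the groups overlapping in CPM. With TMM factors and untreated replicate 2 left out, all treated libraries lay below the untreated ones. In CPM the groups overlapped without that library too. A separation downward was then found for 13.9% of all IDs in CPM, and the share with TMM factors is not given here. The log2 fold change was -0.62 ± 0.38 over all 6 libraries (edgeR adjusted p = 0.658). It was -0.12 ± 0.14 without untreated replicate 2 (adjusted p = 0.755), so the size of the negative value rested on that library.

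Hspb1 encodes Hsp27, a small heat shock protein that holds unfolded proteins without using ATP, and spans 135887919 to 135889563 on chromosome 5. Its counts were low in every library, with 4, 10 and 49 counts in untreated replicates 1, 2 and 3 and 0, 92 and 39 counts in IPA replicates 1, 2 and 3. These correspond to 0.197, 0.17 and 0.927 CPM in untreated cells and to 0, 2.11 and 0.951 CPM with IPA. The count of 0 fell in the shallowest library, where 3 counts correspond to 0.88 CPM and the exact Poisson 95% interval reaches 1.08 CPM. That limit is above all 3 untreated values and above IPA replicate 3. IPA replicate 2 was the highest of the 6, and its interval, from 1.70 to 2.59 CPM, lay above that of IPA replicate 3, from 0.676 to 1.299 CPM. The fitted log2 fold change of 1.20 ± 1.15 (edgeR adjusted p = 0.735), or 0.97 ± 0.68 without untreated replicate 2 (adjusted p = 0.542), had a wide error. It ranged from 0.25 ± 1.43 without IPA replicate 2 to 2.29 ± 1.43 without untreated replicate 3 when single samples were left out. With untreated replicate 2 and IPA replicate 1 both left out it was 1.21 ± 0.54, at an unadjusted p of 0.0405 and an edgeR adjusted p of 0.212. The treated libraries did not separate from the untreated ones.

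**Figure D2:**
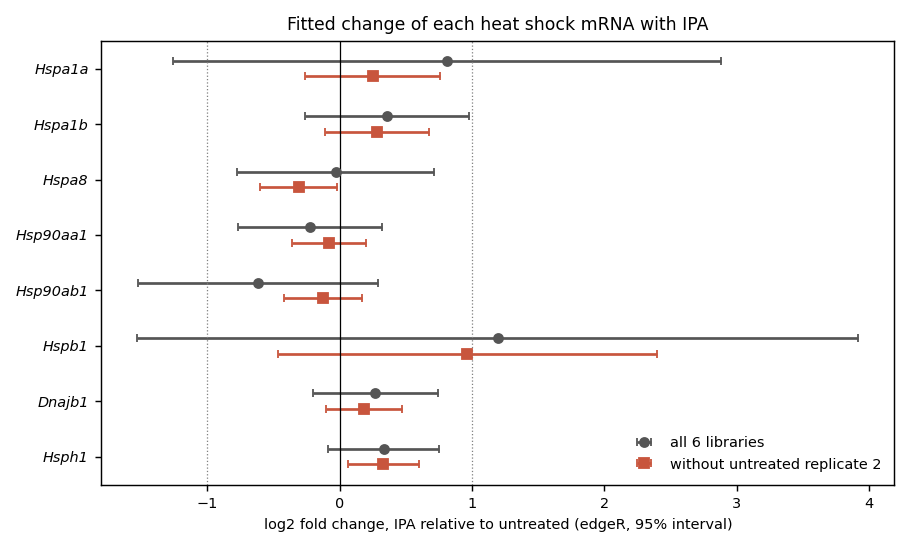
Fitted log2 fold change of each heat shock mRNA with IPA relative to untreated (horizontal axis; points, edgeR estimates with 95% intervals) over all 6 libraries (grey circles) and without untreated replicate 2 (red squares); dotted lines mark 2-fold changes. Leaving out that library narrows every interval, and all but that of Hspb1 then lie inside the dotted lines.

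The intervals say how large a change the data leave room for. A 2-fold change either way is a log2 fold change between -1 and 1. With TMM factors over all 6 libraries, the 95% interval lay in that range for Hspa1b, Hspa8, Hsp90aa1, Dnajb1 and Hsph1. It reached beyond that range for Hspa1a, from -1.26 to 2.88, for Hsp90ab1, from -1.53 to 0.29, and for Hspb1, from -1.53 to 3.92. With library totals, the upper limit passed 1 for Hspa1b (1.30), Hspa8 (1.08), Dnajb1 (1.09) and Hsph1 (1.06), but not for Hsp90aa1 (0.54). The limit of Hspa1b also passed 1 with limma-voom (1.01) and in a fit with replicate number as a block (1.10). Without untreated replicate 2 and with TMM factors, the interval lay between -1 and 1 for 7 of the 8. The widest of the 7 was that of Hspa1a, from -0.26 to 0.76, and the interval of Hspb1 ran from -0.47 to 2.399. An interval that includes 0 does not show that a gene was unchanged. In the 5 libraries with TMM factors, the intervals of Hspa8, from -0.60 to -0.02, and Hsph1, from 0.06 to 0.60, did not include 0, before any adjustment for the number of genes tested. For Hspa8 this depended on the scaling and on the test. Its edgeR interval included 0 with library totals, from -0.49 to 0.08, and with RLE factors, from -0.58 to 0.005. That of limma-voom did not, from -0.52 to -0.11. DESeq2 gave -0.29 ± 0.13 for Hspa8 in these libraries, at an unadjusted p of 0.0313 and an adjusted p of 0.191. The interval of Hsph1 stayed above 0 with library totals, RLE factors and limma-voom, with lower limits of 0.18, 0.09 and 0.11.

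Ratios between members within a library do not depend on how libraries are scaled to each other, and they were compared between libraries only, not as levels between genes. The log2 ratio of Hspa1a plus Hspa1b to Hspa8 counts, inducible to constitutive Hsp70, was -2.20, -1.33 and -1.19 in untreated replicates 1, 2 and 3. It was -1.27, -0.94 and -0.95 in IPA replicates 1, 2 and 3, so that IPA replicate 1 fell between untreated replicates 2 and 3 and the groups overlapped. The group means were -1.57 ± 0.55 and -1.05 ± 0.19 (SD, n = 3 each), a difference of 0.52 that was smaller than the SD of the untreated group. The difference was 0.64 without untreated replicate 2 and 0.21 without untreated replicate 1.

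Hsph1 and Dnajb1 relative to Hspa8 separated untreated replicates 1 and 3 from the treated libraries, but not untreated replicate 2. Both ratios share Hspa8, whose own CPM already separated these libraries downward, while the CPM of Hsph1 and Dnajb1 separated them upward. The ratios were thus bound to separate these libraries and are not independent results. How often other ratios to Hspa8 separate them was not counted. The log2 ratio of Hsph1 to Hspa8 was -2.76, -1.66 and -2.64 in untreated replicates 1, 2 and 3 and -2.17, -2.08 and -1.93 in IPA replicates 1, 2 and 3. The group means differed by 0.29 over all 6 libraries, less than the untreated SD of 0.60, and all treated libraries were below untreated replicate 2. The difference was 0.64 without untreated replicate 2, 0.09 without untreated replicate 1 and 0.15 without untreated replicate 3. The log2 ratio of Dnajb1 to Hspa8 was -3.38, -2.34 and -2.86 in the untreated libraries and -2.77, -2.53 and -2.56 with IPA, in the same order of replicates. The means differed by 0.24, by 0.50 without untreated replicate 2 and by -0.02 without untreated replicate 1. Here the gap between untreated replicate 3 and IPA replicate 1 was small beside the distance between untreated replicates 1 and 3.

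The Hsp90 pair showed its widest spread among the untreated samples. The log2 ratio of Hsp90aa1 to Hsp90ab1 was -1.09, -1.98 and -1.37 in untreated replicates 1, 2 and 3, and -1.17, -1.20 and -1.19 in IPA replicates 1, 2 and 3. The treated values lay between untreated replicates 1 and 3. The group means differed by 0.29 over all 6 libraries, by 0.04 without untreated replicate 2 and by 0.49 without untreated replicate 1.

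**Figure D3:**
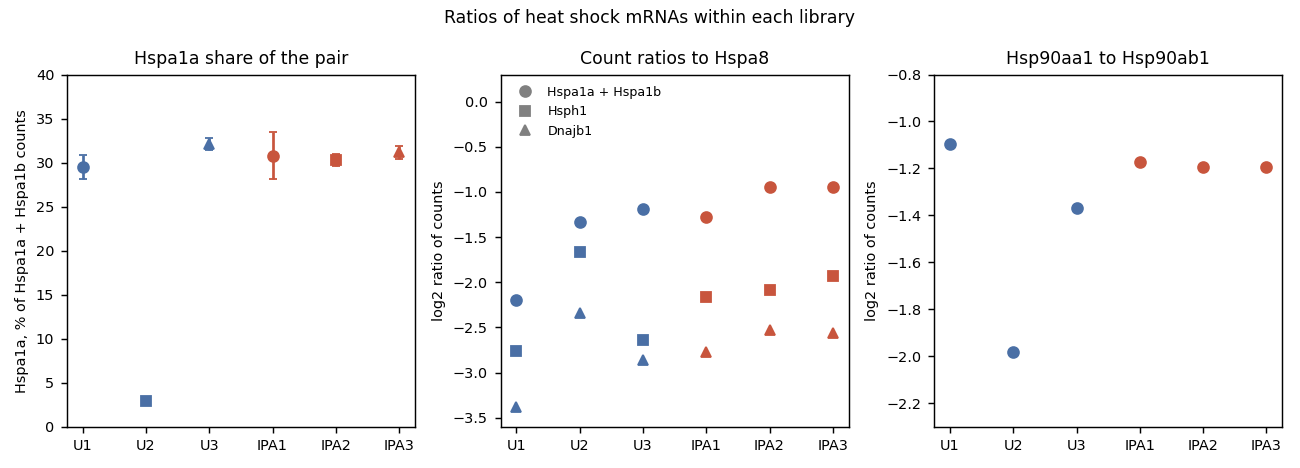
Left, Hspa1a as a percent of Hspa1a plus Hspa1b counts with Wilson 95% intervals; middle and right, log2 ratios of counts to Hspa8 and of Hsp90aa1 to Hsp90ab1, in untreated (blue) and IPA (red) libraries. Untreated replicate 2 has 2.88% Hspa1a where the others have 29.5% to 32.1%, and the lowest Hsp90 ratio, -1.98.

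Differences among untreated samples were as large as those with IPA for the inducible Hsp70 genes. With TMM factors, untreated replicate 3 exceeded untreated replicate 1 by 1.00 on the log2 scale for Hspa1a and by 0.82 for Hspa1b. In size these differences ranked at percentiles 90.6 and 85.8 of all 24935 IDs between the same libraries, and both exceeded the fitted change with IPA without untreated replicate 2, at 0.25 and 0.28. For Dnajb1 the same difference was 0.38, against a fitted 0.18. Hsph1 differed by -0.01 between these untreated libraries, at percentile 2.52 in size, against a fitted 0.33. That fitted change was near the middle in size, at percentile 55.6 of the 25592 IDs of its fit. Hspa8 differed by -0.14, against a fitted -0.31. Between IPA replicates 2 and 3, the deeper treated libraries, 7 of the 8 genes differed by 0.12 or less on the log2 scale in either direction, and Hspb1, with few reads, by -1.07.

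Untreated replicate 2 departed from untreated replicates 1 and 3 by a different amount for each gene. For Hspa1a its difference from their mean was -4.03 on the log2 scale, and in size this ranked at percentile 93.5 of all IDs. The difference was 1.20 for Hsp90ab1 and -0.98 for Hspa8, near the middle of the ranking in size, at percentiles 52.0 and 44.7. Over all IDs the quartiles of this difference were -1.28 and 0.99, so that 6 of the 8 genes lay between them and Hspa1a and Hsp90ab1 outside. Hsph1, at 0.06, Hspa1b, at -0.13, and Dnajb1, at -0.20, differed little from that mean on this scale, which uses TMM factors. In CPM, untreated replicate 2 had the lowest level of all libraries for each of these genes, at 101, 124 and 63.4 CPM. The part of library handling or cell content in these values was not tested.

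**Figure D4:**
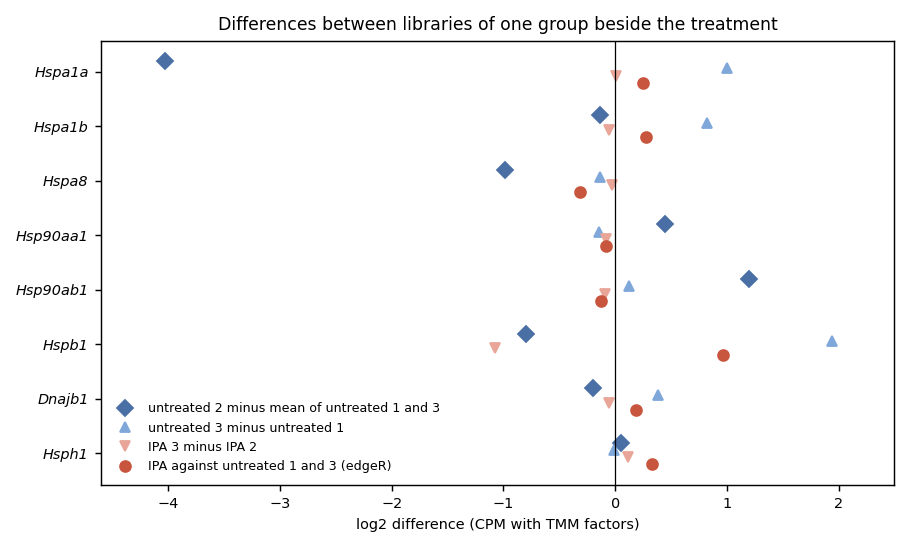
Log2 difference in each heat shock mRNA (horizontal axis, from CPM with TMM factors) between libraries of the same group (diamonds and triangles) beside the edgeR estimate for IPA against untreated replicates 1 and 3 (red circles). For Hspa1a and Hspa1b the untreated replicates 1 and 3 differ by 1.00 and 0.82, more than the estimates of 0.25 and 0.28, while for Hsph1 they differ by -0.01 beside 0.33.

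The 8 profiles across libraries were also set against each other, by the root mean square difference between log2 CPM values (with TMM factors) centred per gene. In the 5 libraries without untreated replicate 2, Hspa1a and Hspa1b were each other's nearest member, at 0.06, and only 4 of the 13112 other IDs whose mean reached 5 CPM were nearer to Hspa1a. Reads that match both copies could have been counted for either, and the part of read assignment in this likeness was not tested. Hsp90aa1 and Hsp90ab1 were also each other's nearest member, at 0.09, but 6.02% of those IDs were nearer to Hsp90aa1, whose level hardly varied. Dnajb1 and Hsph1 were each other's nearest, at 0.15, with 19.5% of IDs nearer to Dnajb1. Over all 6 libraries the nearest member of Hspa1b was Dnajb1, at 0.14, with 52 IDs nearer, while Hspa1a had no member nearer than 1.35. These distances describe few libraries that share most of their profile, and no test was made on them.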

How the data were processed

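The authors deposited raw read counts per Ensembl gene ID for 6 RNA-seq libraries of total RNA, extracted with Trizol per the labels' protocols. The builds GRCm38 and mm10 come from the submitters' processing notes; not given in the sources used here are the aligner, the counter, the annotation, the strand setting and what was done with reads that map to several places. Groups and replicate numbers came from the sample titles, and columns were matched to titles by letter and number. The members and lists were chosen with earlier results of these data known.

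Counts were compared with edgeR 4.0.16 (quasi-likelihood F-test, robust, TMM factors, filterByExpr) in R 4.3.3 over all IDs, with Benjamini-Hochberg adjustment and a call at an adjusted p under 0.05. The SE is the log2 fold change divided by the square root of F. CPM were computed from library totals. Log2 CPM were computed with TMM factors over the IDs that passed the filter, with a prior count of 2. Alternatives were DESeq2 1.42.0, limma-voom (limma 3.58.1), other factors and filters, a replicate block, and samples left out. The procedure was tested on simulated data. The level of 3 counts ran from 0.0509 to 0.88 CPM.

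Named were all 8 members. Their names came with their IDs, and their positions from a RefSeq table for GRCm38.p6, matched by symbol (8 of 8). That table, of 49997 genes, has 0 Ensembl IDs, so 8 pathway lists, 7 lists of cell markers and the rule naming the most similar gene with a symbol were not analysed here.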

Additional observations from a re-analysis of the deposited data

How the results depend on the processing

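In all alternatives run, 0 heat shock genes were called in either direction. Over all genes, against 0 higher and 0 lower, library totals and no filter each called 1 higher, and DESeq2 45 higher and 83 lower. With each sample left out in turn there were between 0 and 322 higher and between 0 and 564 lower, and every call came from the omission of untreated replicate 2. Together with that omission, library totals gave 691 and 327, RLE factors 364 and 481, DESeq2 645 and 656, limma-voom 660 and 1009, and leaving out IPA replicate 1 gave 719 and 763. Library totals moved the median log2 fold change of all genes from -0.08 to 0.13. The sign of Hspa8 turned with library totals (0.14), limma-voom (0.0382) and the replicate block (0.0366), and with single samples left out it lay between -0.311 (untreated replicate 2) and 0.213 (untreated replicate 1), with 0.0877 for untreated replicate 3. That of Hsp90aa1 turned with library totals, to 0.0251 with and 0.0269 without untreated replicate 2. Over all 6 libraries, library totals gave 0.56 for Hspa1b, 0.47 for Dnajb1, 0.55 for Hsph1 and -0.32 for Hsp90ab1, each over 1.5 times from its TMM value. The replicate block gave 1.501 for Hspa1a and 0.79 for Hspb1, and leaving out untreated replicate 3 gave 0.43 for Dnajb1. The cause was not tested. The other 6 genes kept their sign in every alternative that tested them. Hspb1 was not among the IDs left by the filter of 1 CPM in 3 samples. Deviations from the group mean correlated at -0.0771, 0.0183 and 0.161 between samples of the same number, and 3 of 6 correlated best with their own number, so these were not taken to pair the samples. With the replicate block 0 heat shock genes and 0 of all genes were called. The fit of the pair as 1 feature without untreated replicate 2 was chosen after seeing the data. Depth is lowest in IPA replicate 1, where 3 counts correspond to 0.88 CPM.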
